A study of Bos taurus with 12 samples.

Results

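CpG islands are short stretches of DNA in which cytosines followed by guanine (CpG sites) are much denser than elsewhere in the genome. Of the 7290 tiles of 500 bp in the authors' deposited comparison of bull sperm, 1065 (14.6%) were autosomal, had a CpG island as their closest annotated feature and overlapped it by at least 1 bp. They were chosen by position and closest annotation, without use of a tile's difference, p or q. The rule itself was set with earlier results of these data known. Tiles in 5 dense blocks of the table (chromosome 1 below 0.7 Mb, chromosome 6 at 5 to 6 Mb, chromosome 14 at 13 to 14 Mb, chromosome 18 at 57 to 57.5 Mb and chromosome 21 at 32.5 to 33.5 Mb) and on chromosome X were left out. These tiles covered parts of 388 islands on 26 autosomes.

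In most mammalian tissues CpG islands are kept free of methylation while the rest of the genome is largely methylated, and many islands contain the start of a gene. In sperm most DNA is packed by protamines, and the islands of promoters are largely unmethylated and are among the places where histones remain. DNA methylation at islands is best known from imprinted genes, from genes silenced in the germline or in tumours, and from the inactive X chromosome.

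The series compared 6 samples labelled low BFI with 6 labelled high BFI, all of sperm DNA of Bos taurus, in a study of bull fertility. The labels do not say what BFI stands for, and give neither breed nor age of the bulls. Methylation was read by enzymatic methylation sequencing, in which unmethylated cytosines are converted by enzymes and are read as T. For each tile the authors deposited the difference in methylation, read here as percentage points, with its p and q, and no value of a single sample. The labels do not say whether the samples of a group came from separate bulls. The depth behind each tile is unknown, no spread between samples could be computed, and all p and q are the authors' own. Neither header nor labels state which group was subtracted from which, so every sign below is the deposited one and names no group as more methylated.

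Most island tiles differed very little between the groups. The median absolute difference of the 1065 tiles was 0.457 percentage points, with quartiles at 0.201 and 0.964. The same median over all listed tiles was 1.48 points. All listed tiles include chromosome X and the 5 blocks, and without these the 4810 remaining tiles, island tiles among them, had a median of 1.02 points. A difference under 1 point was found in 811 island tiles (76.2%), of 1 to 2 points in 129, of 2 to 5 points in 99, of 5 to 10 points in 22 and of 10 points or more in 4. Counted by island, all tiles of 290 of the 388 islands (74.7%) stayed under 1 point, and 34 islands had a tile at 2 points or more. The median over islands of the absolute mean difference was 0.423 points.

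**Figure D1:**
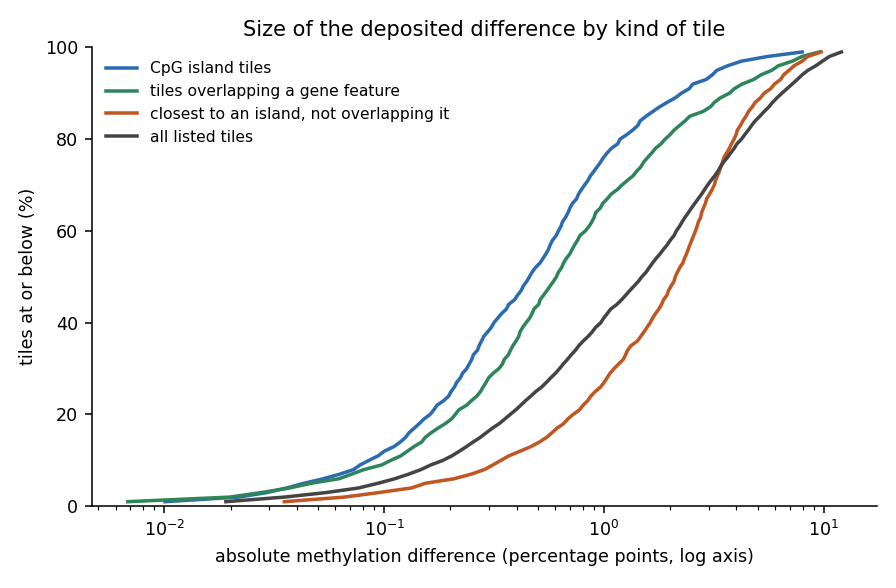
Cumulative share of tiles (vertical axis, percent) by the absolute methylation difference between the groups (horizontal axis, percentage points, log scale) for 4 sets of tiles, drawn at the percentiles 1 to 99. The curve of the CpG island tiles lies to the left of the others over nearly its whole course, with a median of 0.457 points against 1.48 for all listed tiles.

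A large difference was rare in islands. With a deposited q under 0.05 and a difference of at least 10 points, 4 of the 1065 island tiles were counted (0.376%), against 2.78% of all listed tiles and 0.915% of the 4810 autosomal tiles outside the 5 blocks. The 4 tiles lay in 3 islands. With the 5 blocks kept, 9 of 1113 island tiles were counted, in 4 islands. With the blocks left out and at least 5 points, the count was 26 tiles (2.44%) in 9 islands. The share at 5 points was 15.4% of all listed tiles and 9.65% of those 4810. Of these 26 tiles, 19 were negative, in 6 islands, and 7 positive, in 3 islands. Large differences were as rare in some similar tiles. Among 329 tiles lying 1 to 2000 bp from the island that was their closest feature, 2.43% had at least 5 points and 0 had 10. Among 1079 tiles overlapping a gene feature, 0.371% had at least 10 points and 6.39% at least 5. Whether these shares differ from those of other tiles was not tested, because overlapping tiles hold the same cytosines.

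Small differences with a low q were common. A q under 0.05 at any difference was deposited for 622 island tiles (58.4%), against 71.8% of all listed tiles and 67.4% of the autosomal tiles outside the blocks. Of the 622, 371 (59.6%) differed by less than 1 point. Among tiles with a q under 0.05 this share was 21.8% of all listed tiles and 29.3% of the autosomal tiles outside the blocks. It was 47.5% for tiles overlapping a gene feature. Negative tiles with that q made up 35.7% of the island tiles (380), against 55.9% of all listed tiles, and positive ones 22.7% (242), against 15.9%. Over the autosomal tiles outside the blocks these shares were 48.1% and 19.3%. Among the 388 islands, 257 had such a tile. It was negative only in 134 islands, positive only in 109 and of both signs in 14.

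The deposited q followed p only within a chromosome. When all listed tiles were ordered by p, q fell from one tile to the next in 3204 of 7289 steps, whereas within each of the 27 chromosomes of the table it never did (0 steps). The q was below the p in 768 island tiles (72.1%), close to the 68.7% of all listed tiles. Among the island tiles, 67 had a q under 0.05 with a p of at least 0.05. The largest p that came with a q under 0.05 was 0.0184 among the listed tiles of chromosome 22 and 0.503 among those of chromosome 28. On chromosome 20 it was 0.444, and 28 of 31 island tiles there had a q under 0.05. Benjamini-Hochberg adjustment of the deposited p over all listed tiles left 513 island tiles under 0.05 (48.2%, against 62.5% of all listed tiles), 316 of them negative (61.6%). All 4 tiles of at least 10 points remained under 0.05 with that adjustment.

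The largest difference in an island was on chromosome 9. The island, from 34370342 to 34371082, is 741 bp long and has an observed/expected CpG ratio of 0.61, the lowest of the 388. That ratio, copied from the deposited annotation, sets the number of CpG sites against the number expected from the base composition. Its listed tiles in the authors' deposited table, from 34370401 and from 34370501, lay wholly inside the island and differed by -16.4 (q = 1.10e-26) and -18.9 percentage points (q = 3.92e-37). These tiles overlap over most of their length and are not separate measurements.

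An island of 9235 bp on chromosome 25, from 35727589 to 35736823, held the lowest q of all island tiles. Its 5 listed tiles lay together on the high side of the centre, between 35733601 and 35734500, and differed by -7.61, -8.02, -7.90, -8.88 and -10.8 points in order of position in the authors' deposited table. The largest of these, at the high end, had a q of 2.41e-135, and the smallest a q of 1.35e-316. The tile with the largest difference thus had the highest q of the 5, and the depth behind each is unknown. In all, 98 tile positions of the grid overlap this island, and the rest were not listed.

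An island on chromosome 6, from 108807763 to 108810098, came just under the minimum of 10 points. Its 4 listed tiles in the authors' deposited table differed by -9.06, -9.70, -9.20 and -7.93 points, with q between 8.61e-14 and 5.20e-17. All lay wholly inside the island, close to its centre.

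The only island with a positive tile of 10 points or more was on chromosome 19, from 13425351 to 13427152. Of its 5 tiles, 3 crossed the low edge and the next 2 lay wholly inside. In the authors' deposited table the difference was 9.95 points for the tile with 250 bp in the island, 11.2 (q = 1.42e-30) for the next, and then fell through 8.73 and 7.49 to 5.79 as the tiles moved into the island. No other listed tile lay within 3000 bp of these 4 islands, so the table shows nothing of their flanks. No tile with a gene ID lay within 10 kb of them.

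**Figure D2:**
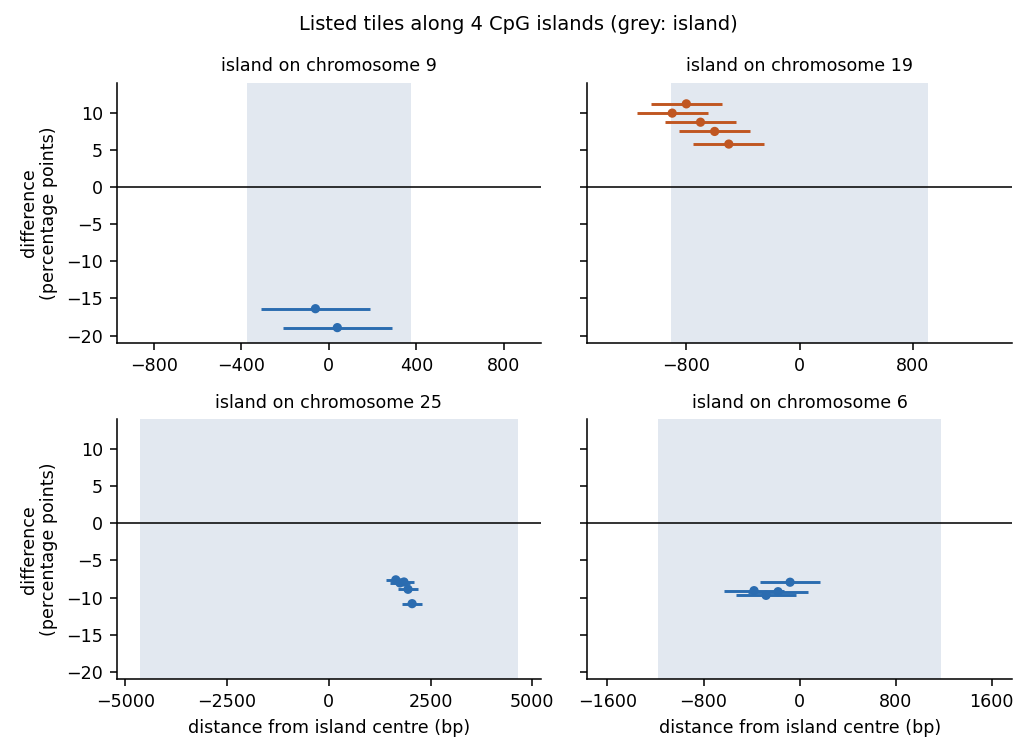
Listed tiles along the 4 islands with the largest differences, by the distance of the tile's centre from the island's centre (horizontal axis, bp) and the methylation difference with its deposited sign (vertical axis, percentage points). Bars span the 500 bp of a tile and the grey band is the island: tiles are wholly inside on chromosomes 9, 25 and 6 and lie across and just inside the low edge on chromosome 19, where values run from 11.2 down to 5.79.

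Further negative islands had their largest tile at 4 to 8 points. On chromosome 2, from 136128647 to 136130512, the 6 tiles differed by -7.51, -6.38, -2.40, -2.38, -3.13 and -6.42 points in order in the authors' deposited table. The values were larger at either end of this run than in its middle. On chromosome 20, from 112298 to 112821, 7 tiles ran from -0.796 to -6.18 points (lowest q 1.31e-84) in the authors' deposited table. The tiles with the largest values there overlapped the 524 bp island by 121 and 21 bp only, and the tile wholly inside stood at -2.08 points. The 12 other listed tiles within 2000 bp of it that did not overlap it averaged 1.82 points, of the opposite sign. A further 3 tiles, annotated to an exon, overlapped this island and averaged -2.80 points. On chromosome 25, from 12174 to 12985, every one of the 13 possible tiles was listed, with differences between -3.18 and -5.50 points in the authors' deposited table, all with a q under 0.05. The values closest to zero were those of tiles inside this island, and the largest those at its high edge. A single tile covered the island on chromosome 13 from 116910 to 117334, at -4.94 points (q = 1.09e-10) in the authors' deposited table.

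The island with the most listed tiles lay at the start of chromosome 19. It runs from 26 to 25892, the longest of the 388 at 25867 bp, with an observed/expected ratio of 1.16. Its 26 tiles were all negative in the authors' deposited table, from -0.0302 to -4.55 points, and 23 had a q under 0.05. The 3 tiles without it lay apart, between 11801 and 12500. The remaining tiles lay between 23401 and 26100 and ran from -1.76 to -4.55 points. On chromosome 16, from 184347 to 184782, 9 tiles differed by -1.17 to -4.21 points in the authors' deposited table, smallest toward the low edge and largest toward the high edge. Other islands with many tiles stood close to zero. The 14 tiles on chromosome 18 from 59225165 to 59228125 differed by -0.0276 to -0.502 points, and the 12 tiles on chromosome 5 from 26561719 to 26562626 by 0.0544 to 0.607, both in the authors' deposited table. In each of these quiet islands most tiles still had a q under 0.05 (12 of 14 and 8 of 12).

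Islands close to the start of an assembled chromosome had larger differences than the rest, a grouping chosen after the values were seen. In the first 1 Mb there were 14 islands on 9 chromosomes with 115 tiles, a median absolute difference of 1.71 points and 80.0% negative tiles. The 950 tiles of the other 374 islands had a median of 0.425 points and 53.1% negative tiles. By island, the mean was negative in 11 of 14 islands near a chromosome start and in 50.0% of the islands elsewhere. A tile of 2 points or more was found in 9 of the 14. The difference between these sets was not tested. None of the 3 islands with a tile of at least 10 points was among them.

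Beside the island on chromosome 19, the largest positive differences were below 7 points. On chromosome 10, from 101740608 to 101741098, 3 tiles rose in order from 2.26 through 3.84 to 6.61 points (q = 8.14e-13 for the last) in the authors' deposited table. The largest value was that of the tile reaching farthest past the high edge. On chromosome 11, from 106404547 to 106405735, both listed tiles overlapped only the low edge and differed by 4.66 and 5.38 points (the second with q = 3.21e-22) as listed in the authors' deposited table. The 2 tiles listed within 2000 bp of that island averaged -1.95 points. On chromosome 2, from 135320520 to 135321110, the authors' deposited table gives 3.33 and 2.53 points, and on chromosome 20, from 69319493 to 69319918, it gives 3.25 and 3.20. Both of these islands were covered by a pair of overlapping tiles. On chromosome 8, from 23168223 to 23170705, 3 tiles at the high edge differed by 2.20 to 2.79 points in the authors' deposited table. On chromosome 3, from 21069127 to 21069718, 6 tiles differed by 0.618 to 2.53 points in the authors' deposited table, largest at the low edge. On chromosome 4, from 61784784 to 61785859, the tile with 117 bp in the island stood at 3.31 points (q = 3.22e-08) in the authors' deposited table. The next 3 tiles there differed by 0.572, 0.397 and -0.340, so this island rests on its edge tile.

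Differences changed sign within some islands. Of the 247 islands with more than 1 listed tile, 183 had tiles of 1 sign. In 31 islands a pair of listed tiles shared no base, and the outermost such pair had the same sign in 23 of them, with a median gap between the pair of 0.740 points and a largest of 5.38. On chromosome 25, from 8678 to 9904, the tiles wholly inside ran from 0.223 to 1.03 points, while the low-edge tiles reached -2.50 and a tile with 4 bp in the high edge -4.68 in the authors' deposited table. On chromosome 16, from 79200203 to 79200763, the authors' deposited table puts the low-edge tile at 2.45 points (q = 0.00614) and the other 4 tiles between -0.909 and -1.16, so that with at least 250 bp of overlap its largest tile is negative. On chromosome 29, from 24757 to 25993, low-edge tiles at 2.57 and 2.93 points gave way to tiles between -0.403 and 0.384 in the authors' deposited table, and here too the largest tile with at least 250 bp of overlap is negative. On chromosome 20, from 37041705 to 37042554, 3 successive tiles differed by -1.20, 0.337 and 0.973 in the authors' deposited table. The second of these had a q of 0.0230 with a p of 0.192. Another island of chromosome 20 with many tiles, from 115662 to 116810, ran from -0.963 to 0.927 points over 12 tiles in the authors' deposited table.

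**Figure D3:**
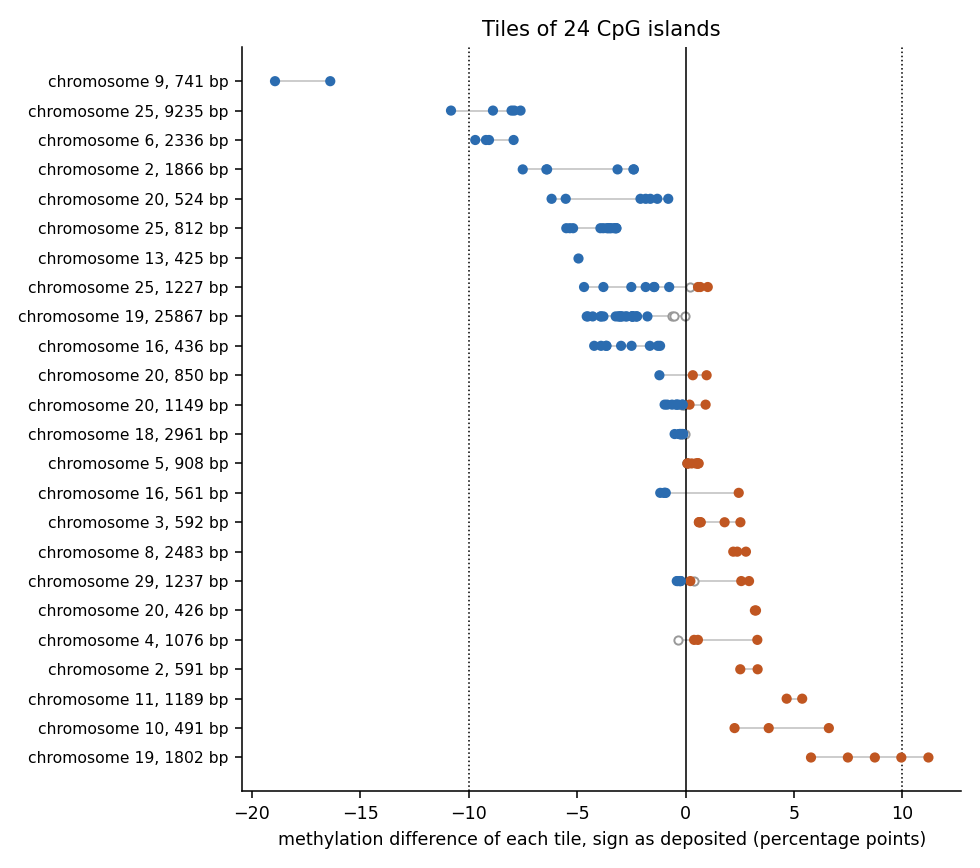
Methylation difference of each listed tile (horizontal axis, percentage points, sign as deposited) in 24 islands, ordered by their largest difference and labelled with chromosome and length. Filled points have a deposited q under 0.05 (blue negative, orange positive), open points do not, and dotted lines mark 10 points: they are passed by 3 islands, on chromosomes 9, 25 and 19.

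Genes could be placed at 112 of the 388 islands (28.9%), where another listed tile within 10 kb was annotated with a gene ID. Tiles annotated to an exon without a gene ID were not used. Islands with such tiles over them included those on chromosome 20 from 112298 (3 tiles), chromosome 9 from 44175 (9) and chromosome 29 from 5566466 (1). These are counted here as without a gene. In most of the 112 islands an annotated feature of the gene itself overlapped the island, with a 5′ UTR in 32, coding sequence in 39, an intron in 33 and an exon with no further class in 30. The 112 islands lay near 116 genes, 108 of them with a symbol from the RefSeq table. A tile with a q under 0.05 was found in 70 of the 112, against 257 of all 388 islands (66.2%), and 0 had a tile of 10 points or more, against 0.773% of all islands. The median absolute island mean was 0.390 points with a gene ID and 0.443 without. The mean was negative in 43 of the 112 gene islands (38.4%) and in 155 of the other 276 (56.2%), a difference in sign between sets that was not tested. A tile of 2 points or more was found in 4 gene islands and in 30 of the others.

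Of the islands placed at a gene ID, those of 2 points or more were all of multicopy or unnamed genes and are reported as uncertain. Genes in these paragraphs were picked for their size after the values were seen. An island of 3358 bp on chromosome 4, from 119842511 to 119845868, overlaps LOC112446467, a USP17-like gene, of a family of deubiquitinases present in many near-identical copies. Its 11 tiles differed by -1.88 to -3.24 points in the authors' deposited table, all with a q under 0.05. A related gene, LOC790134, overlaps an island on chromosome 3 from 120965833 to 120969096, with 4 tiles at -2.87, -2.13, -2.08 and -2.30 points in the authors' deposited table. The remaining 2 were the islands near the start of chromosome 25 described above, 9979 and 13060 bp from the closest annotated feature of ENSBTAG00000023249, an ID without a name. Over the island from 8678 to 9904 there were also 5 listed tiles annotated to an exon without a gene ID.

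Among islands of other genes with an ID, every difference was under 2 points. The largest positive values were in islands of PRDM6, a PR/SET domain transcriptional regulator, SOAT1, which esterifies cholesterol, GP5, a glycoprotein of platelets, and CNIH4, of the cornichon family of cargo exporters. The island in an intron of PRDM6 on chromosome 7 (30714431 to 30716096) had tiles at 1.65 and 1.77 points (q = 8.55e-08 and 6.06e-08) in the authors' deposited table. At SOAT1, in an island of chromosome 16 (60632097 to 60633641) that overlaps its 5′ UTR, 3 tiles stood at 1.44, 1.66 and 1.49 in the authors' deposited table. At GP5, on chromosome 1 (73132651 to 73134108), 4 tiles fell from 1.66 at the low edge to 1.10 points farther inside, in the authors' deposited table. At CNIH4, on chromosome 16 (27528956 to 27529738), the authors' deposited table gives 1.66, 1.40 and 1.06 points, falling as the tiles left the island at its high edge. SELENOM, a selenoprotein of the endoplasmic reticulum, had 1.33 points (q = 9.95e-07), and CHMP2B, a subunit of the ESCRT-III membrane-scission complex, 1.16 and 1.21, in the authors' deposited table.

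Negative values of named genes were found at SNAPC5, a subunit of a complex that activates small nuclear RNA genes, CAP1, which recycles actin, and TMEM229B. The SNAPC5 island on chromosome 10 (13355639 to 13356267) had tiles at -1.66 and -1.51 points in the authors' deposited table (q = 3.06e-05 for the larger). The CAP1 island on chromosome 3 (106065549 to 106066307), over its 5′ UTR, had -1.35 and -1.44 points in the authors' deposited table. TMEM229B stood at -1.40 and -1.43, and SVEP1, an extracellular matrix protein, at -1.15 in a single tile, in the authors' deposited table. FBXO3, a ubiquitin ligase subunit, stood at -0.949 points in the authors' deposited table, in a single tile with 30 bp in the island. CHMP6, another ESCRT-III subunit, had -0.944 points in the authors' deposited table, opposite in sign to CHMP2B.

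**Figure D4:**
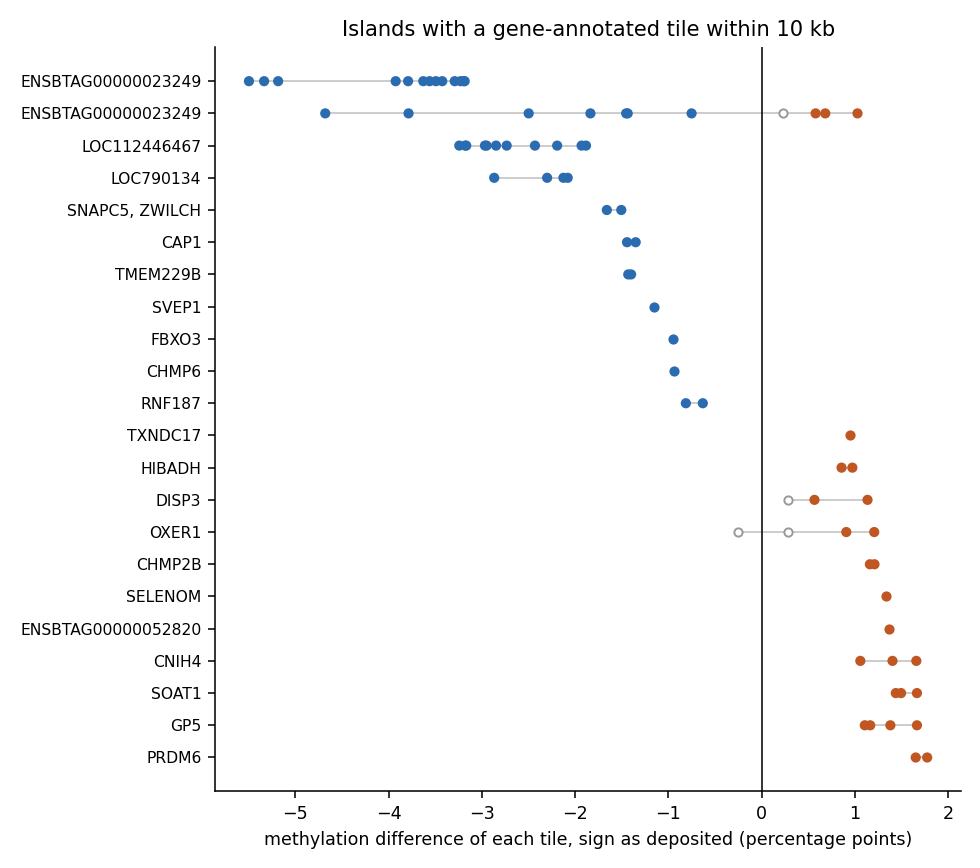
Methylation difference of each listed tile (horizontal axis, percentage points, sign as deposited) in 11 gene islands with a large negative and 11 with a large positive tile at a q under 0.05. Blue and orange points have that q, open points do not: apart from 4 islands of multicopy or unnamed genes, values lie between -1.66 (SNAPC5) and 1.77 points (PRDM6).

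Tiles annotated to the gene did not always share the sign of the island tiles beside them. Over the 388 islands, 319 further listed tiles had a gene feature and not the island as closest annotation, and so were not counted as island tiles. Their median absolute difference was 0.591 points and 46.1% were negative, against 56.0% of the island tiles. At PRDM6 the single such tile was 1.26 points and at CAP1 -1.58, both with the sign of the island tiles. At SNAPC5 it was 0.382, at DISP3, a relative of Dispatched, the mean was -0.918 where the island tiles reached 1.13, and at HIBADH, a mitochondrial enzyme of valine breakdown, it was -0.640 where they reached 0.971.

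Of 6 gene lists, 3 had a gene at one of these islands. Of 3 developmental transcription factors, EN1, an engrailed homeobox gene of midbrain patterning, had 1 of 2 tiles under a q of 0.05, with values of -0.700 and 0.413 points in the authors' deposited table. NKX2-1, needed for thyroid and lung, stood at 0.313 (q = 0.127) and OTX2, needed for the forebrain, at 0.213 (q = 0.262, with its closest feature 5379 bp away) in the authors' deposited table. DPY19L2, required for sperm head formation, was the only germline gene, with both tiles of its island on chromosome 4 (61850439 to 61851353) under that q, at -0.755 and -0.359 points in the authors' deposited table. SMARCA2, an ATPase of the SWI/SNF chromatin remodelling complex, was the only chromatin gene, at 0.146 points (q = 0.229) in the authors' deposited table. The lists of imprinted genes, leukocyte markers and epithelial or accessory gland markers had 0 genes at these islands, so the purity of the sperm could not be checked from them.

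The median absolute difference was under 1 point at every place in an island, while most tiles of 5 points or more lay wholly inside. The median absolute difference was 0.391 points for the 423 tiles at the low-coordinate edge, 0.468 for the 334 wholly inside and 0.535 for the 292 at the high-coordinate edge, and 16 tiles that spanned a whole island had 0.499. Of the 26 tiles of 5 points or more, 16 were wholly inside (4.79% of the inside tiles), 4 at the low edge (0.946%) and 6 at the high edge (2.05%). Of the 4 tiles of at least 10 points, 3 were wholly inside. A q under 0.05 came with 64.1% of the inside tiles, 51.5% of the low-edge and 61.6% of the high-edge tiles. The tiles of 5 points or more come from 9 islands, and the differences between places were not tested. By overlap, the 73 tiles with 1 to 100 bp in the island had the highest median, 0.647 points, and the classes with more overlap lay between 0.397 and 0.477. The 43 tiles just outside, 1 to 100 bp from the island that was their closest feature, had 0.466. For edge tiles the deposited position class mostly followed the tile's start: all 423 low-edge tiles were classed downstream, while 288 of the 292 high-edge tiles were classed within. Of the 334 tiles wholly inside, 304 were classed within, 27 downstream and 3 distal intergenic.

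The median tile difference varied little with island length and was highest in the lowest quartile of the observed/expected CpG ratio. Counted by tile, most differences of 5 points or more were in islands of a low ratio, and most in long ones. The islands had a median length of 968 bp, up to 25867, and ranged from 0.61 to 1.35 in observed/expected ratio with a median of 0.86. Across the 388 islands, Spearman's rho of the absolute mean difference was -0.010 with length and -0.125 with the ratio. All islands come from the same 12 samples, so rho is given as a description. In quartiles of islands by the ratio, those with 0.61 to 0.79 had a median absolute tile difference of 0.620 points, and those with 0.80 to 0.86, 0.87 to 0.93 and 0.94 to 1.35 had 0.445, 0.329 and 0.445. The lowest quartile held 21 of the 26 tiles of 5 points or more (6.62% of its tiles, against 1.35%, 0.366% and 0.397% in the others) and all 4 of at least 10 points. By length, the longest quartile (1380 bp and more) held 17 of the 26 (5.94% of its tiles), and the others 3, 5 and 1 from the shortest up (1.14%, 2.05% and 0.369%). Its tiles were negative in 63.3%, against 54.9%, 49.2% and 55.4% in the same order. These counts too come from 9 islands, whose overlapping tiles are counted singly, and were not tested. The 9 islands were 741, 9235, 2336, 1866, 524, 812, 1189, 491 and 1802 bp long, so not all were in the longest quartile. Of the tiles of at least 10 points, 2 were in the longest quartile and 2 in that of 662 to 966 bp. Of the listed values, size and q went together: rho between the absolute difference and -log10 q over the island tiles was 0.868.

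**Figure D5:**
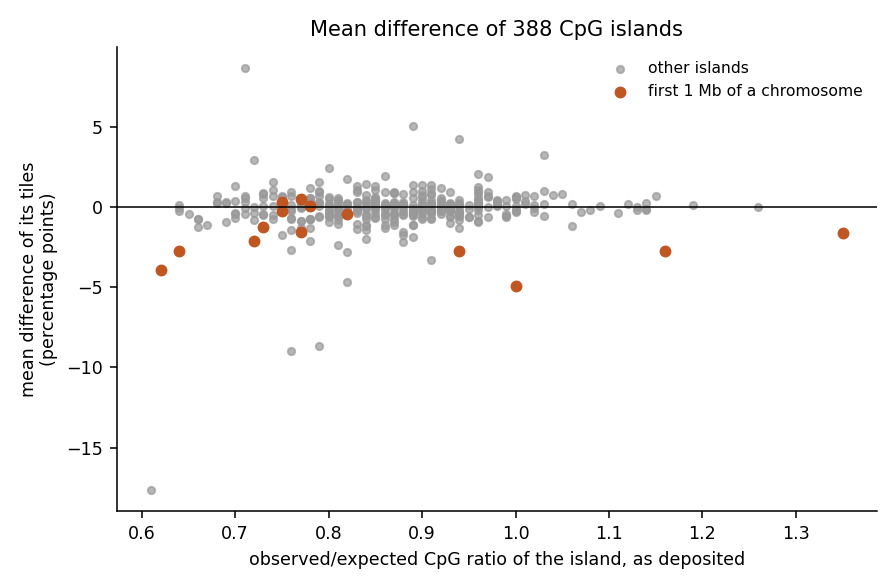
Mean methylation difference of the listed tiles of each of 388 islands (vertical axis, percentage points, sign as deposited) by the island's observed/expected CpG ratio (horizontal axis). The point at the lowest left is the island on chromosome 9 with a ratio of 0.61, and 11 of the 14 islands in the first 1 Mb of a chromosome (orange) lie below zero.

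Island tiles were set beside other autosomal tiles outside the 5 blocks. The 1305 tiles with an island as closest feature that did not overlap it had a median absolute difference of 2.11 points and were negative in 79.2%. Those within 2000 bp of the island (329) had 1.04 points and 63.8% negative, and those farther away (976) had 2.38 points and 84.4% negative. Tiles overlapping an annotated gene feature (1079) had 0.607 points and 54.3% negative, and 4 had at least 10 points. Their upper range was larger than that of island tiles, with 69 tiles (6.39%) of 5 points or more against 26 (2.44%) and a 95th percentile of 5.79 points against 3.26. Beside single islands the sizes were closer. For 43 islands with any other listed tile within 2000 bp, the median absolute mean was 0.681 points in the island and 0.656 points in its flank. The flank had the larger size in 22 of the 43, and the sign was shared in 30. Of these islands, 11 lay in the first 1 Mb of a chromosome, and among the other 32 the medians were 0.477 inside and 0.585 in the flank, with the flank larger in 18.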

How the data were processed

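Sperm DNA of 6 low BFI and 6 high BFI samples was profiled by enzymatic methylation sequencing. The tools Bismark, methylKit and Trimmomatic, and the builds ARS-UCD1.2 and bosTau9, are listed without versions or settings per the submitters' processing notes. Per the file headers, the authors' deposited table gives the p-value and q-value of each 500 bp tile on a 100 bp grid, and its methylation difference, a signed score read as percentage points (its direction is not stated). Per the file headers it also gives other values, namely the distance and edges of the closest feature. Coordinates are those of the table. 0 columns of samples were left unmatched, and the depth is unknown.

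Tiles and islands were intersected on closed intervals. An island's genes are those whose ID is given for other listed tiles within 10 kb. Of 116 such genes, 103 got a symbol by description and 5 by NCBI number in a RefSeq table (assembly ARS-UCD2.0), from which no coordinates were taken. Calls use the deposited q (under 0.05), with at least 10 points where stated. The alternatives were other minima (5 and 20 points), a q under 0.01, Benjamini-Hochberg adjustment, 250 bp of overlap, the 5 blocks, chromosome X and 1 tile per island. The functions were tested on simulated data. Named islands are those with a tile of at least 10 points, the 10 largest of each sign, those with the lowest q, the 5 with the most tiles and the 4 of both signs with the widest span. The members, lists and rules were chosen with earlier results of these data known. Some gene islands are not reported by name here and are left out of the plot of gene islands. No genome sequence was used, so none is printed. The tables were computed in pandas 2.3.3 and SciPy 1.17.1 (with NumPy 2.4.6, on Python 3.11.15) and drawn with matplotlib 3.10.9.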

Additional observations from a re-analysis of the deposited data

How the results depend on the processing

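No paired analysis was possible because the groups share no replicate numbers and the table holds no value of a single sample. For the same reason no sample could be left out in turn. The count of 4 island tiles in 3 islands was 26 tiles in 9 islands with a minimum of 5 points and 0 tiles in 0 islands with 20 points. It was 9 tiles with the 5 blocks kept (4 islands). With 1 tile per island, which leaves 388 tiles, it was 1 tile, the tiles with a q under 0.05 numbered 219, and 49.5% of the tiles were negative against 56.0%. The tiles with a q under 0.05 numbered 466 at a q under 0.01 and 513 with Benjamini-Hochberg adjustment. With 250 bp of overlap, chromosome X, every listed tile over an island, or no islands in the first 1 Mb (the last 2 chosen after seeing the data), the counts stayed within 1.5 times, the median size lay between 0.425 and 0.479 points, and the negative share between 53.1% and 56.0%. Among the 24 named islands, 2 changed the sign of their largest tile at 250 bp of overlap, to -1.16 points on chromosome 16 and -0.403 on chromosome 29. The sign was kept in 21, and the island on chromosome 11 from 106404547 had no tile with that overlap. Some that kept the sign lost size, as from -6.18 to -2.08 points on chromosome 20 from 112298. The depth sets what each q can show and is unknown.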
